A study of Mus musculus with 8 samples.

Results

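Meig1, Mical1, Prom1, Tnfrsf11a and Krt31 are 5 genes with no known part in drug metabolism whose liver transcripts were higher in mice fed phenobarbital. For Prom1 the diets were apart without overlap on only 1 of its 2 array features (spots). The genes were taken as 5 of 20738 measured genes, through all 7 features that carry their symbols out of 31465 features with 1 gene symbol. They were chosen by their log2 differences between the diets, as large rises on the treated diet, so those differences are given as a description with no test. What can be set beside them is how the features of 1 gene compare, how the treated arrays differ among themselves, and what relatives, pathway partners and neighbours on the chromosome did.

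The livers came from male mice of CD-1, an outbred stock, with no other genotype given. The NaPB group had eaten a diet with 2500 ppm NaPB (sodium phenobarbital) for 7 days, and the control group a diet with 0 ppm for the same 7 days. Total RNA of each was measured on 4 one-colour arrays per diet, 8 arrays in all. Whether each array stands for a mouse of its own is not stated in the labels, so every error given here measures only the spread between these samples, which may be technical, and the number of arrays limits the precision.

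Values are intensities that the authors had scaled within each array, in arbitrary units. Values no higher than 2 times the lowest one of an array are called at the floor here, where they have no order. The liver label was borne out by its markers, since albumin (Alb) and 5 other hepatocyte genes stood at or above the 96.3rd percentile of genes on every array. NaPB replicate 4 and control replicate 1 stood apart from the rest, with array weights from limma of 0.313 and 0.308 against 1.14 to 1.98 on the other arrays. Results that rest on them are given with and without them.

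Phenobarbital activates the nuclear receptor CAR in hepatocytes. CAR pairs with RXR, and the pair binds DNA at repeats of short half-sites such as AGGTCA and AGTTCA and switches on enzymes that clear foreign compounds, of which Cyp2b10 is the classic mouse example. The 5 genes described here have other known roles. In the mouse, Meig1 encodes a small protein needed to shape sperm, Mical1 an enzyme that oxidizes actin and takes filaments apart, Prom1 the membrane glycoprotein prominin-1 (CD133), known from progenitor and bile duct cells, Tnfrsf11a the receptor RANK, known from osteoclast precursors and immune cells, and Krt31 an acidic keratin of hair.

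By the brightest feature of each gene, all 4 NaPB arrays lay above all 4 control arrays for 5 of 5 genes, where 2.72% of all genes did so. Of the 7 features, 6 did, where 2.58% of all features with 1 symbol did. Likewise 5 of 5 genes were among the genes called higher at a limma adjusted p below 0.05, where 0.391% of all genes were. These counts follow from how the genes were picked and support nothing. The brightest feature is the one with the highest mean log2 value over all 8 arrays, treated ones included. For Prom1 this is feature 4193 only through the NaPB arrays. On the control diet feature 59801 was brighter, with a geometric mean of 0.304 against 0.0858. What is given for Prom1 by its brightest feature rests on that choice. Among all genes ranked by log2 difference, Meig1 stood at 5, Prom1 at 7, Mical1 at 11, Tnfrsf11a at 44 and Krt31 at 93. The 5 genes fell into 3 with at least 1 control array at the floor (Meig1, Mical1 and Prom1) and 2 measured clearly above it on every array (Tnfrsf11a and Krt31).

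**Figure D1:**
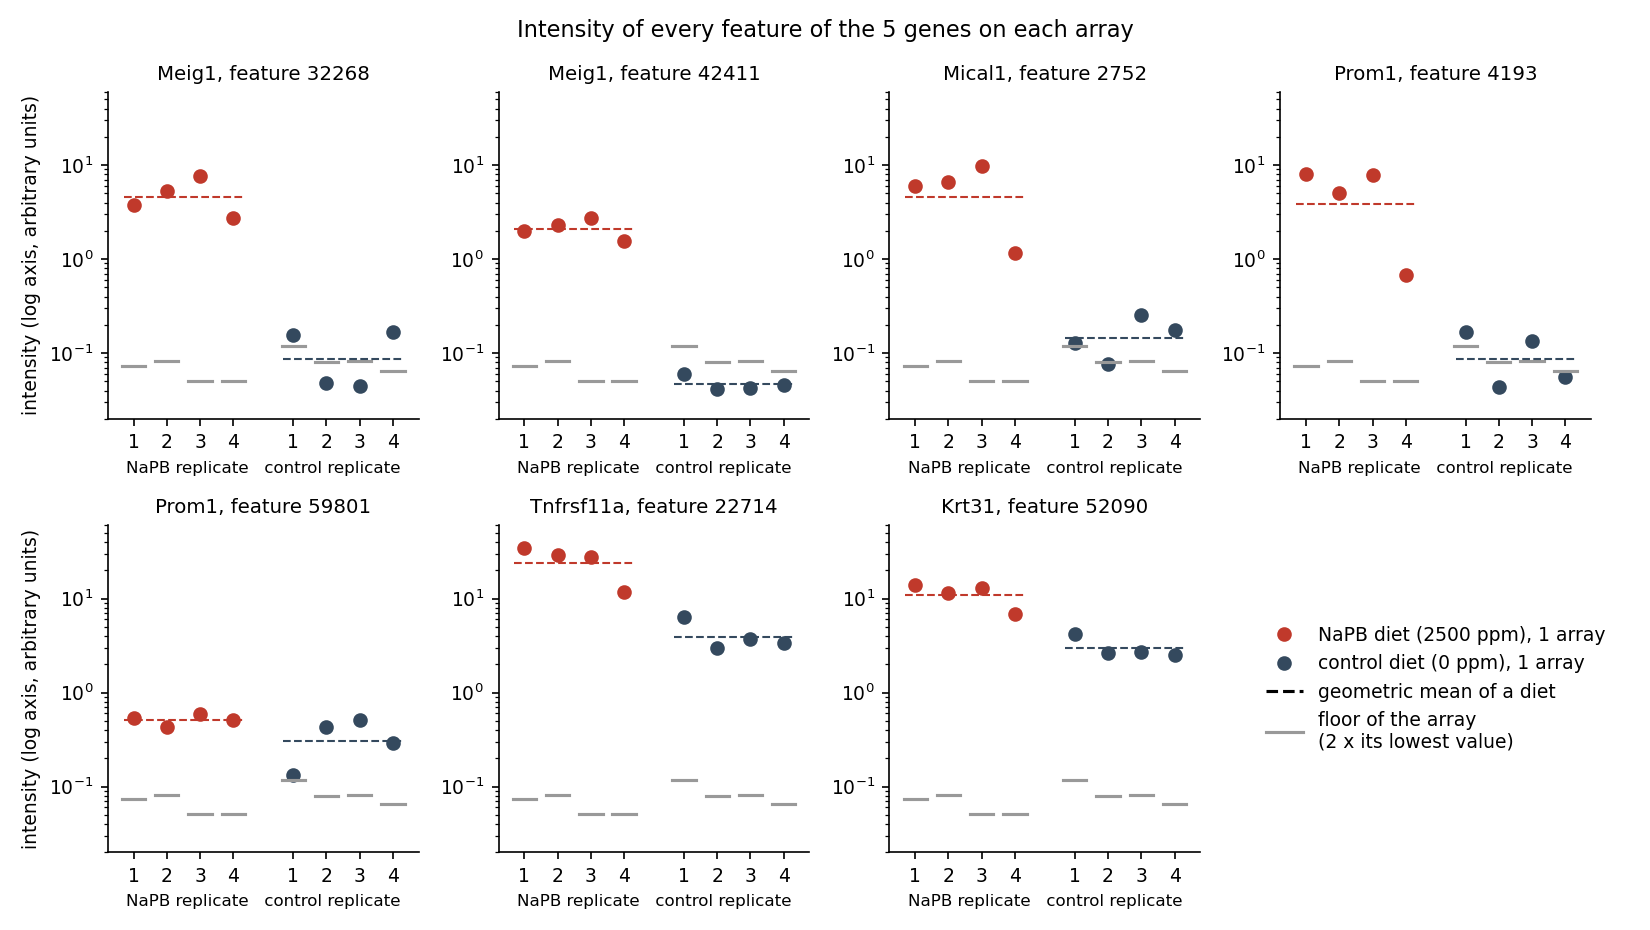
Intensity (log axis, arbitrary units) of each of the 7 features on each of the 4 NaPB and 4 control arrays, with the geometric mean of each diet as a dashed line and the floor of each array as a grey bar. All NaPB points lie above all control points in 6 of 7 panels, and Prom1 feature 59801 is the one where the diets overlap.

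Meig1 had the highest log2 difference of the 5 over all 8 arrays, and Prom1 feature 4193 stood above it without NaPB replicate 4 (6.32 for Prom1 and 5.96 for Meig1). In mouse spermatids its protein works with SPAG16 at the manchette, the microtubule skirt that shapes the sperm head. Feature 32268 read 3.81, 5.27, 7.68 and 2.73 on NaPB replicates 1 to 4, against 0.156, 0.0480, 0.0448 and 0.166 on control replicates 1 to 4. The lowest NaPB array was 16.5 times the highest control array. Control replicates 2 and 3 were at the floor, so 2 of 4 control arrays lay above it. Of these, replicate 1 read 0.156 against a floor of 0.119.

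The other Meig1 feature, 42411, is annotated to the same RefSeq transcript record. It read 2.00, 2.32, 2.77 and 1.55 on NaPB replicates 1 to 4, against 0.0606, 0.0416, 0.0423 and 0.0458 on control replicates 1 to 4. All 4 control values were at the floor, so the feature gives only a bound, at least 25.0-fold higher on the NaPB diet. For feature 32268 the log2 difference was 5.71 ± 0.51 (SE from limma, n = 4 arrays per diet), a fold of 52.4, or 39.7 with the control values at the floor raised to it. Without NaPB replicate 4 and control replicate 1 it was 6.24. Both features put the NaPB arrays in the same order, with replicate 3 highest and replicate 4 lowest. With control values raised to the floor, the log2 differences were 5.31 for feature 32268 and 4.65 for feature 42411. How far the rises of these features differ cannot be read, since the control values of the dimmer one are bounds.

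The deposited table holds no sequences, so the stretch before the RefSeq start of Meig1 is shown as the regulatory sequence nearest to the result. RefSeq lists 3 start windows for Meig1. The outermost one lies outside any annotated gene, at chr2:3422649-3422898 on the minus strand of GRCm38.p6, and its 250 bases are printed 5′ to 3′, with the nuclear receptor half-site AGTTCA in capitals.
Meig1: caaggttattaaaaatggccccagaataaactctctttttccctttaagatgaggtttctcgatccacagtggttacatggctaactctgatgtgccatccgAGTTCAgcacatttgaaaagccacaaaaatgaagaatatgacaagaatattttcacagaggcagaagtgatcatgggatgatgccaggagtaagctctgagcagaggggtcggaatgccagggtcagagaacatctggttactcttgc
The half-site lies on the gene strand, 148 to 143 bases before the start. One of the inner Meig1 windows holds AGTTCA too, 44 to 39 bases before its start.

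Mical1 encodes a flavoprotein monooxygenase that oxidizes methionines of actin and so breaks filaments, a step that the methionine sulfoxide reductases reverse. Its 1 feature, 2752, read 6.03, 6.60, 9.79 and 1.16 on NaPB replicates 1 to 4, against 0.129, 0.0757, 0.254 and 0.178 on control replicates 1 to 4. Only control replicate 2 was at the floor, and replicate 1 lay just above it (0.129 against a floor of 0.119). The lowest NaPB array was 4.55 times the highest control array, and the log2 difference was 4.99 ± 0.62 (SE, n = 4 per diet), a fold of 31.8. Raising the control value at the floor to the floor left it at 31.4-fold. The log2 difference was 5.66 without NaPB replicate 4, over 1.5 times the fold, and 5.60 without control replicate 1 as well. Within the NaPB diet Mical1 spread more than Meig1: its log2 SD was 1.36, against 0.64 for Meig1 feature 32268, and replicate 4 lay 6.32-fold below the mean of the other NaPB arrays. That order rests on replicate 4. On NaPB replicates 1 to 3 Mical1 stood 5.38, 5.51 and 6.08 log2 units above its control mean. Meig1 feature 32268 stood 5.46, 5.93 and 6.47 above its own, the wider range.

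Prom1 is the gene whose features disagreed. Prominin-1 is a glycoprotein with several membrane passes that sits in membrane protrusions. Feature 4193 read 8.14, 5.09, 7.82 and 0.686 on NaPB replicates 1 to 4, against 0.167, 0.0433, 0.135 and 0.0557 on control replicates 1 to 4. Control replicates 2 and 4 were at the floor, so 2 of 4 control arrays lay above it. The diets did not overlap, and the lowest NaPB array, replicate 4, was 4.11 times the highest control array. The log2 difference was 5.49 ± 0.76 (SE, n = 4 per diet), a fold of 45.0, or 37.2 with the control values at the floor raised to it. NaPB replicate 4 moved it by over 1.5 times, since without that array the log2 difference was 6.32, and 6.64 without control replicate 1 as well.

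Feature 59801 of Prom1 read 0.540, 0.433, 0.594 and 0.506 on NaPB replicates 1 to 4, against 0.132, 0.433, 0.508 and 0.292 on control replicates 1 to 4. No array was at the floor, the diets overlapped, and the log2 difference was 0.76 ± 0.40. Without control replicate 1, the lowest of the 8, it was 0.36. The log2 difference of feature 4193 exceeded that of feature 59801 by 4.73 ± 1.13 log2 units (SE, 8 arrays), and by 6.27 without NaPB replicate 4 and control replicate 1; it rests in part on the control values of feature 4193 at the floor. Within arrays, feature 4193 was brighter than 59801 by 3.91, 3.55, 3.72 and 0.44 log2 units on NaPB replicates 1 to 4, and the offset was 0.33, −3.32, −1.92 and −2.39 on control replicates 1 to 4. As probes differ in brightness, only the change of this offset between arrays can be read, not its sign. The features are annotated to different RefSeq transcript records of the gene, which has 22 such records, and which exons each feature reads is not given in the sources used here. Whether the disagreement comes from the transcript forms or from the probes was not tested.

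Tnfrsf11a encodes RANK, which on binding its ligand RANKL (Tnfsf11) recruits TRAF6 and switches on NF-kB and NFATc1; osteoprotegerin (Tnfrsf11b) is the soluble decoy that takes up the ligand. Feature 22714 read 34.5, 29.2, 28.0 and 11.9 on NaPB replicates 1 to 4, against 6.41, 3.02, 3.68 and 3.34 on control replicates 1 to 4. NaPB replicate 4 was the lowest treated array and control replicate 1 the highest control array, and they stood 1.85-fold apart. The log2 difference was 2.61 ± 0.39 (SE, n = 4 per diet), a fold of 6.13. It was 3.19 without control replicate 1 and NaPB replicate 4.

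The RefSeq start window of Tnfrsf11a is rich in G and C, which make up 73.6% of its 250 bases against a median of 52.4% over 32851 windows. It holds 31 CpG pairs, against a median of 6. The 200 bases that lie outside the annotated gene, chr1:105780473-105780672 on the plus strand of GRCm38.p6, are shown for contrast with the other starts and hold none of the motifs searched.
Tnfrsf11a: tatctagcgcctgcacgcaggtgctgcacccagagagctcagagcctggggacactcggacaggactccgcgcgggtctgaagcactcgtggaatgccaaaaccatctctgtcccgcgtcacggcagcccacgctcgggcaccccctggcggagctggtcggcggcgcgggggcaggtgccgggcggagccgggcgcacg

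Krt31, an acidic (type I) hair keratin, had the smallest difference of the 5 and the least spread among the brightest features on the NaPB arrays. Feature 52090 read 13.9, 11.6, 13.1 and 6.79 on NaPB replicates 1 to 4, against 4.16, 2.67, 2.72 and 2.51 on control replicates 1 to 4. The diets did not overlap, and NaPB replicate 4 was 1.63 times control replicate 1, the highest control array. The log2 difference was 1.89 ± 0.32 (SE, n = 4 per diet), a fold of 3.70, and 2.28 without control replicate 1 and NaPB replicate 4. The log2 SD was 0.47 on the NaPB diet and 0.33 on the control diet.

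The Krt31 window, chr11:100050552-100050801 on the minus strand of GRCm38.p6, lies outside any annotated gene. It is shown because it holds 3 of the motifs searched, in capitals from left to right: TTCNNNGAA, the form bound by STAT factors, TGACNNNGC, the antioxidant response form, and TATAAA, the TATA box.
Krt31: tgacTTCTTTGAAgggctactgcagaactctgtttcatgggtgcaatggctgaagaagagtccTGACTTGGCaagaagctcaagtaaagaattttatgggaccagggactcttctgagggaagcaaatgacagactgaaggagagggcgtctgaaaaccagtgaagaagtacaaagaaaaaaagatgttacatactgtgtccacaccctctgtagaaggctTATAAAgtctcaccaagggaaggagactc
The TATA box lies 29 to 24 bases before the start.

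In all, 5 motifs were searched on both strands in the 250 bases before each start, over the 8 windows of the 5 genes. AGGTCA was in 0 of 8 windows and in 14.0% of all 32851 windows. AGTTCA was in 2 of 8, both of Meig1, and in 11.8% of all. TGACNNNGC was in 2 of 8, in Krt31 and the inner window of Prom1, and in 10.2% of all. TTCNNNGAA was in 1 of 8 and in 7.02% of all. TATAAA was in 2 of 8, in Krt31 and, on the other strand, in Mical1, and in 12.4% of all. The motifs do not overlap each other in the windows printed. A match describes the letters alone, and a missing one says nothing about enhancers outside these windows.

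The treated arrays differed among themselves in how high the 5 genes stood. NaPB replicate 4 was the lowest NaPB array for 6 of 7 features, the exception being Prom1 feature 59801. Relative to the mean of the other NaPB arrays, replicate 4 lay at −3.32 log2 units for Prom1 feature 4193, −2.66 for Mical1, −1.36 for Tnfrsf11a, −0.97 for Meig1 feature 32268 and −0.92 for Krt31. Replicate 4 was also the lowest for 55 of the 76 other genes called higher (72.4%), and for 43.7% of all genes. Those 76 genes lay at a median of −0.86 log2 units on replicate 4 relative to the other NaPB arrays, and all genes at −0.20.

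The index genes of the diet did the same. Cyp2b10 read 521, 491, 430 and 77.7 on NaPB replicates 1 to 4, against 3.72, 0.863, 2.98 and 5.22 on control replicates 1 to 4, and replicate 4 lay at −2.62 log2 units relative to the other NaPB arrays. Cyp2c55 lay at −2.84, Gstm3 at −1.73 and Gsta1 at −2.04. Meig1, Tnfrsf11a and Krt31 thus dropped less on replicate 4 than all 4 index genes. Mical1 lay within the range of the index genes, and Prom1 feature 4193 dropped more than all 4. Whether the genes differ in this was not tested.

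**Figure D2:**
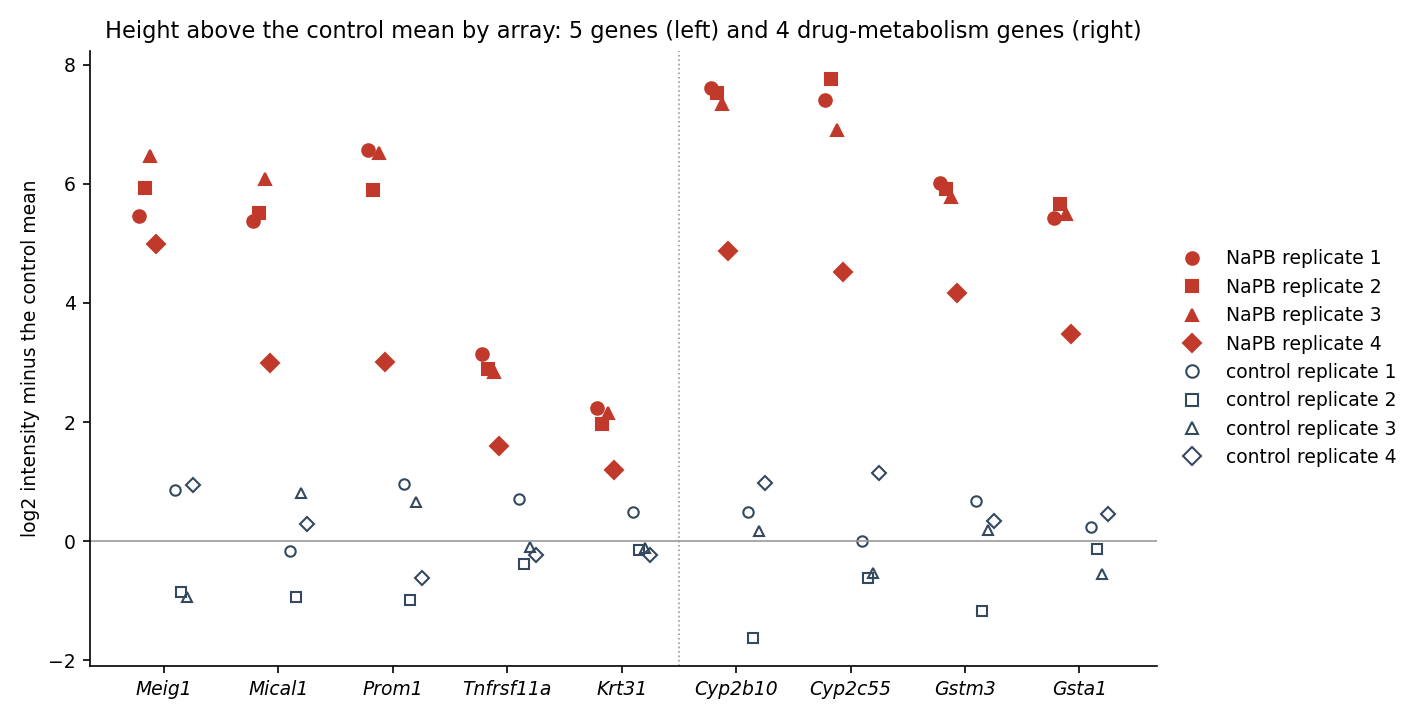
Log2 intensity minus the control mean of the same gene on each of the 4 NaPB (filled) and 4 control (open) arrays, for the brightest feature of the 5 genes and of 4 drug-metabolism genes. NaPB replicate 4 is the lowest NaPB array of every gene shown, 3.00 log2 units above the control mean for Prom1 and 4.98 for Meig1.

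The genes with profiles most like each of the 5 were looked up by the root mean square distance over the 8 arrays between log2 values set against each gene's own control mean, a measure that counts the size of the rise as well as its shape. Genes with uncharacterised symbols were left out of this search. Sult1e1 was at the floor on 4 of 4 control arrays, and Meig1, Mical1 and Prom1 each had at least 1 control array there. Distances that involve these genes rest in part on values at the floor. Nearest to Meig1 were Gstm3 at 0.64, Gsta1 at 0.76 and Sult1e1 at 0.82 log2 units. Nearest to Mical1 were Cyp2b9, a female-biased P450 gene of mouse liver, at 0.54, then Gstm3 at 0.63 and Gsta1 at 0.64. Nearest to Prom1 outside the 5 were Gstm3 at 0.66, Gsta1 at 0.90 and Cyp2b9 at 1.02. These are genes of glutathione transferases, a sulfotransferase and a P450. As the 5 genes were picked by the size of their rise and the distance counts that size, the near genes are largely those with rises as large. The likeness follows in part from the picking, and shared regulation was not tested.

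Nearest to Tnfrsf11a were Cyp2c37 at 0.16, Gstm4 at 0.22 and Ces2c at 0.25 log2 units, again genes of drug-metabolizing enzymes. Nearest to Krt31 were Prelid2 at 0.24, the aldehyde dehydrogenase gene Aldh1a7 at 0.26 and the P450 gene Cyp3a16 at 0.29. Among the 5 genes themselves, Tnfrsf11a and Krt31 were 0.55 apart, Mical1 and Prom1 0.70, Meig1 and Mical1 1.05, and Meig1 and Krt31, the farthest pair, 2.78.

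Genes next to the 5 on their chromosomes were measured as well. Of 30 neighbours, the 3 nearest measured genes on either side of each of the 5, none rose and none fell by limma at an adjusted p below 0.05, where 1.01% of all genes passed. At an unadjusted p below 0.05 there was 1, Rnf152 near Tnfrsf11a, with a log2 difference of −0.84 ± 0.31. The neighbours ran from −0.84 to 0.80, with a median of 0.15 against 0.01 for all genes. Of the 30, 22 were above the floor on every array, and 3 were at the floor on all arrays of a diet (Krt34, Krt35 and Gm7160, the one at 0.80), so that their differences are not measured.

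Meig1 on chromosome 2 had Olah at 0.63 ± 0.58 on one side and Dclre1c at 0.28 ± 0.25 on the other. Mical1 on chromosome 10 had Zbtb24 at −0.08 ± 0.38 and Smpd2 at 0.63 ± 0.36, and Prom1 on chromosome 5 had Fgfbp1 at 0.20 ± 0.46 and Tapt1 at 0.19 ± 0.25. The neighbours of Krt31 on chromosome 11 are all hair keratin genes of its own family: Krt33b at 0.59 ± 0.51, Krt33a at 0.37 ± 0.63, Krt32 at 0.00 ± 0.39 and Krt36 at 0.20 ± 0.54, none of which passed, and Krt34 and Krt35. Krt34 was at the floor on 1 of 4 NaPB and 4 of 4 control arrays and Krt35 on 8 of 8 arrays, and 1 control array of Krt33a and of Krt32 was at the floor. As hair keratins are alike in sequence, a probe for one could bind transcripts of another, which was not tested.

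**Figure D3:**
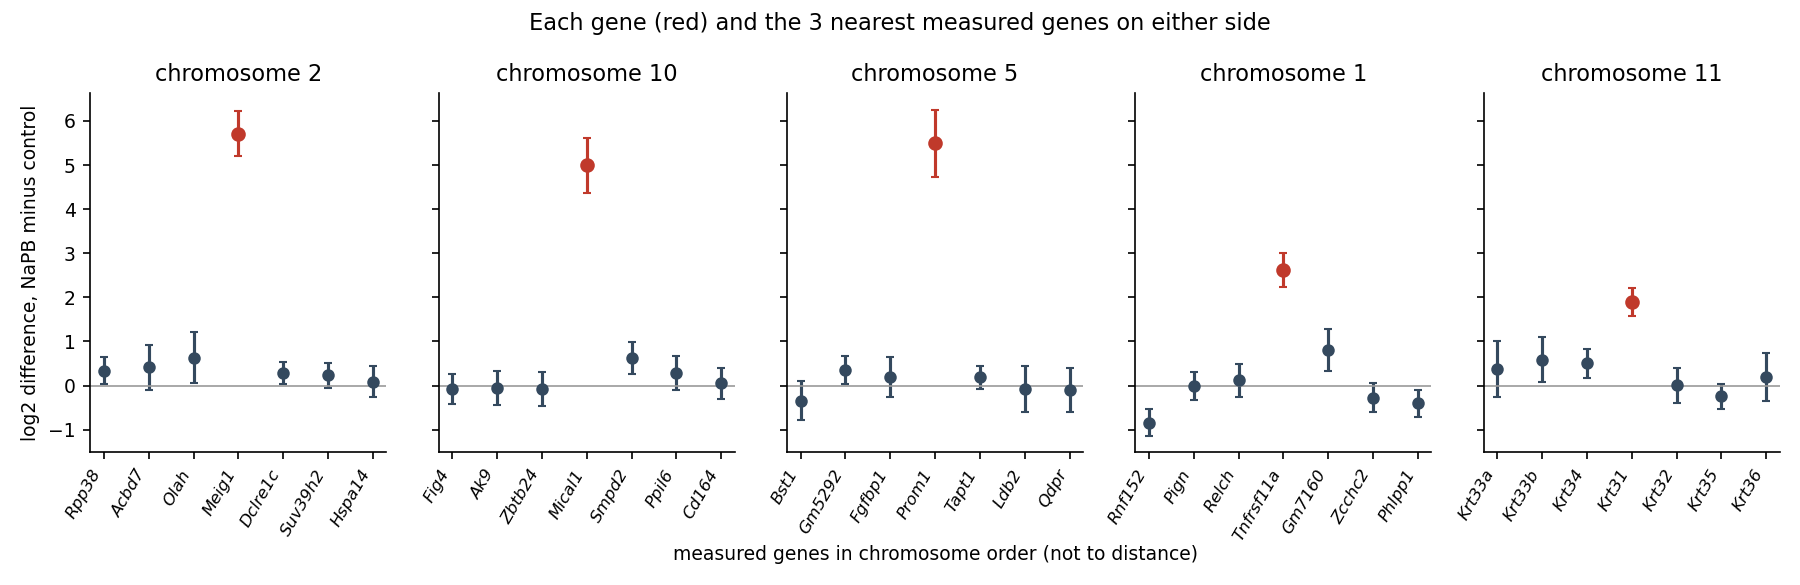
Log2 difference (NaPB minus control, ± limma SE) of each of the 5 genes (red) and of the 3 nearest measured genes on either side (dark), in chromosome order and not to distance. The 30 neighbours, 3 of them at the floor on all arrays of a diet, lie between −0.84 and 0.80 log2 units. The 5 genes, picked for large rises, lie between 1.89 and 5.71.

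Relatives and pathway partners of the 5 genes were followed as 7 lists, 148 genes in all. Of these none rose and 1 fell at a limma adjusted p below 0.05, a share of 0.676% where all genes gave 1.01%. At an unadjusted p below 0.05 there were 22 (14.9%), against 10.1% of all genes. The median log2 difference was 0.07, against 0.01 over all genes.

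The gene that fell was Cldn4, a tight junction gene of bile ducts, in the list of 14 measured prominin, bile duct and progenitor genes. It read 0.647, 0.756, 0.831 and 0.911 on NaPB replicates 1 to 4, against 2.32, 1.62, 2.03 and 1.92 on control replicates 1 to 4, a log2 difference of −1.32 ± 0.25 (limma adjusted p = 0.0387). The diets did not overlap, as for 4.31% of all genes in that direction. With 1 array left out it passed only without NaPB replicate 4 (limma adjusted p = 0.0288); the others gave 0.0648 to 0.141. It also missed with arrays at the same median, with all features of the gene averaged and with the replicate number as a block (limma adjusted p = 0.106, 0.265 and 0.111); the full range over the alternatives was 0.00695 to 0.265 (limma adjusted p). Prom2, the close relative of Prom1, had a log2 difference of −0.11 ± 0.46 and Krt19, a bile duct keratin, one of −0.08 ± 0.26. The list had a median of −0.03 with 7 of 14 above 0, and the next smallest p values belonged to Cldn7 (−0.42 ± 0.33) and Muc1 (0.55 ± 0.56).

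Of 27 RANK axis genes none passed, 5 had an unadjusted p below 0.05 and 7 lay above 0, with a median of −0.17. The ligand gene Tnfsf11 was at the floor on 4 of 4 NaPB and 2 of 4 control arrays. The decoy gene Tnfrsf11b had a log2 difference of −0.74 ± 0.56 with 1 array of each diet at the floor, the adaptor gene Traf6 one of −0.03 ± 0.34 and Nfatc1 one of −0.37 ± 0.28. The smallest p values in the list were those of the osteoclast receptor gene Oscar (−0.81 ± 0.26), the adaptor gene Traf1 (−0.82 ± 0.28) and Jun, of the AP-1 transcription factor (1.45 ± 0.53, limma adjusted p = 0.342). Jun read 14.0, 26.5, 11.9 and 3.40 on NaPB replicates 1 to 4, against 3.63, 3.66, 5.55 and 3.61 on control replicates 1 to 4. Jun passed without NaPB replicate 4, at a log2 difference of 2.02 (limma adjusted p = 0.0251). Among 25 other TNF receptor genes none passed and 6 had an unadjusted p below 0.05, with Tnfrsf12a at 0.94 ± 0.30, Tnfrsf1a at 0.69 ± 0.26 and Tnfrsf25 at −1.73 ± 0.57 showing the smallest p values; the median was −0.01. With all features of a gene averaged, Tnfrsf19 passed, higher on the NaPB diet.

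Of 22 MICAL family genes and partners none passed and 5 had an unadjusted p below 0.05, with a median of 0.13. The other MICAL enzymes had log2 differences of 0.26 ± 0.30 (Mical2) and −0.06 ± 0.25 (Mical3), and the methionine sulfoxide reductase gene Msrb1 one of 0.08 ± 0.32. The smallest p values were those of the docking protein gene Nedd9 (limma adjusted p = 0.164), the MICAL-like gene Micall2 (0.86 ± 0.32) and the semaphorin receptor gene Plxna2 (−0.64 ± 0.25). Nedd9 was at the floor on 4 of 4 control arrays, so it was at least 1.33-fold higher on the NaPB diet, and on these floor values it passed without NaPB replicate 4 (limma adjusted p = 0.0421).

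Among keratins, 13 hair keratin genes had a median log2 difference of 0.20 and 29 others one of 0.23, and none passed; 1 of each list had an unadjusted p below 0.05. Krt79, of skin and hair follicle epithelium, read 5.11, 2.97, 3.22 and 1.32 on NaPB replicates 1 to 4, against 1.33, 0.599, 0.840 and 0.993 on control replicates 1 to 4, a log2 difference of 1.65 ± 0.42 (limma adjusted p = 0.117). It overlapped only through NaPB replicate 4 and passed without that array (2.02, limma adjusted p = 0.0255). Krt2 (0.52 ± 0.24) and Krt12 (0.83 ± 0.39) were next. Krt86 (−1.08 ± 0.35), Krt84 (at the floor on 3 of 4 arrays of each diet) and Krt34 had the smallest p values among hair keratins. The hepatocyte keratins Krt8 and Krt18 had log2 differences of 0.16 ± 0.45 and 0.50 ± 0.32.

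Of 18 genes of meiosis, spermatids and the axoneme none passed, 3 had an unadjusted p below 0.05 and 13 lay above 0, with a median of 0.28. Spag16, the partner of Meig1, had a log2 difference of 0.07 ± 0.34. The spermatid genes Akap4 (−1.12 ± 0.32), Tnp2 (−1.23 ± 0.39) and Prm2 (0.79 ± 0.27) had the smallest p values. Without NaPB replicate 4, 4 of the 148 genes passed, Cldn4 lower and Jun, Krt79 and Nedd9 higher, and the same 4 passed without control replicate 1 as well.

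**Figure D4:**
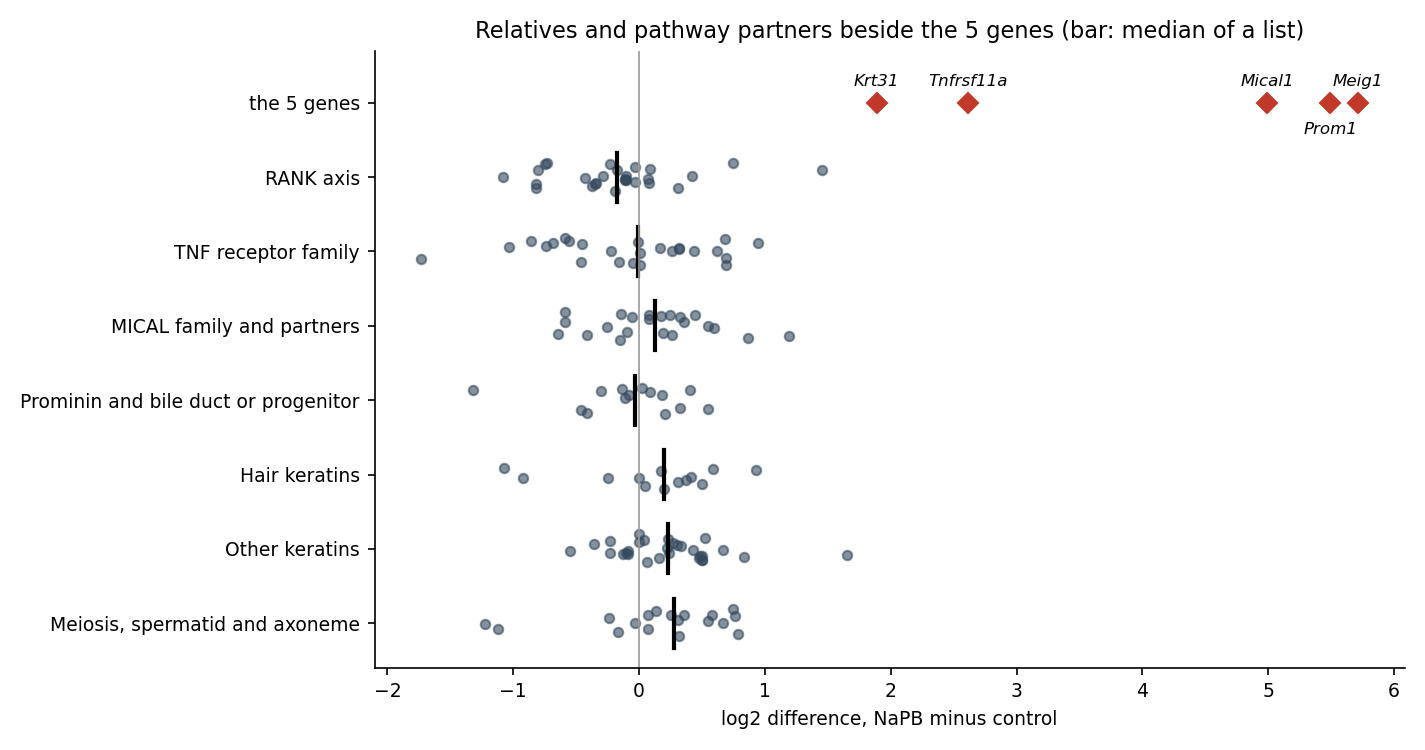
Log2 difference (NaPB minus control) of the 5 genes (diamonds) and of the measured genes of 7 lists of relatives and partners (dots; bar, median; a gene on 2 lists is drawn once). The medians of the lists lie between −0.17 and 0.28. No listed gene reaches the 1.89 of Krt31, but the 5 genes were picked for large rises, so this follows in part from the picking.

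Because Meig1, Prom1, Tnfrsf11a and Krt31 are known from other cell types, markers of those cells were read beside them. No markers were set beside Mical1. In whole liver, fewer cells of a type and less RNA per cell cannot be told apart. Beside Prom1, none of 6 bile duct cell markers passed or had an unadjusted p below 0.05, and their summed intensity was 3.56 to 4.87 on NaPB arrays and 1.95 to 5.20 on control arrays. Beside Tnfrsf11a, none of 7 Kupffer cell and macrophage markers passed, 1 had an unadjusted p below 0.05, 6 of 7 lay at or below a log2 difference of 0 (median −0.44) and their sum was lower on the NaPB diet without overlap, 21.4 to 25.0 against 29.4 to 31.8 on control arrays; Adgre1 (−0.79 ± 0.33), Clec4f (−0.50 ± 0.25) and Marco (−0.54 ± 0.29) had the smallest p values. None of 5 osteoclast markers passed, 1 (Oscar) had an unadjusted p below 0.05, and their sum was 30.2 to 71.0 on NaPB arrays and 49.0 to 86.6 on control arrays, with Ctsk at the floor on 8 of 8 arrays.

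Beside Krt31, none of 6 skin and hair markers passed and 1, Lor (−1.46 ± 0.59), had an unadjusted p below 0.05, with sums of 1.60 to 12.4 on NaPB arrays and 3.04 to 12.1 on control arrays and Krtap3-1 at the floor throughout. Beside Meig1, none of 6 testis markers passed and 1, Prm2, had an unadjusted p below 0.05. Prm2 passed with array weights (0.95, limma adjusted p = 0.0298). The 6 markers had a median log2 difference of 0.02, with 3 above 0. Their sums were 3.32 to 3.97 on NaPB arrays and 2.55 to 3.25 on control arrays, which did not overlap. That gap came from Prm2, and without Prm2 the sums overlapped. Prm2 read 1.92, 2.30, 1.99 and 1.55 on NaPB replicates 1 to 4, against 1.48, 1.11, 0.926 and 1.02 on control replicates 1 to 4. The germ cell gene Ddx4 was at the floor on 3 of 4 NaPB and 4 of 4 control arrays.

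Of 4 measured neutrophil markers 1 rose, S100a8, at 46.3, 126, 71.0 and 2.02 on NaPB replicates 1 to 4 against 0.418, 0.313, 0.246 and 0.464 on control replicates 1 to 4, a log2 difference of 6.43 ± 1.04 (limma adjusted p = 0.0176). With 1 array left out S100a8 gave 0.000186 to 0.0654 (limma adjusted p) and missed without NaPB replicate 1 or 3 or without control replicate 1, 2 or 3. S100a9, its usual partner, had one of 0.84 ± 0.50 and was highest on NaPB replicate 4. The neutrophil sum was 9.54 to 134 on NaPB arrays and 2.03 to 3.28 on control arrays. Without S100a8, the other 3 markers summed to 2.07 to 7.93 on NaPB arrays and 1.61 to 2.81 on control arrays, which overlap. No marker of hepatocytes (6), endothelial cells (6), stellate cells (6) or T and B cells (6 measured) passed. At an unadjusted p below 0.05 these were Alb (−1.24 ± 0.36), Apoa1, the endothelial gene Lyve1 (1.01 ± 0.38) and the stellate gene Reln (−0.93 ± 0.29). After quantile normalization Alb (−1.28, limma adjusted p = 0.0298) and Apoa1 (−1.10, limma adjusted p = 0.0333) passed, lower on the NaPB diet. With array weights Reln passed, also lower (−1.11, limma adjusted p = 0.0245). The part of these cells in the rises of the 5 genes was not tested.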

How the data were processed

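The authors deposited 1 linear intensity per feature and array, read from one-colour Agilent arrays with Agilent Feature Extraction 10.7, per the submitters' processing notes. The 75th percentile lies between 0.952 and 0.974 on every array, so the authors had scaled each array, and NaPB replicate 2 holds 3443 distinct values against at least 62756 on the others; how background, flagged spots and low values were treated is not stated there. Of 62976 features, 31465 carry 1 gene symbol, updated through RefSeq tables of GRCm38.p6 (3282 changed; 5 unmatched).

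Log2 values without pseudocount were fitted with limma 3.58.1 (R 4.3.3; lmFit and eBayes, two-sided, Benjamini-Hochberg over 20738 genes by their brightest feature, or over all named features). The ± values are limma standard errors. The fit was checked on simulated data. Alternatives were other scalings, pseudocounts, a filter on dim genes, averaged features, arrays weighted or left out, and a block for the replicate number. Named genes are the 5, the 3 smallest p and every called gene per list, the 3 nearest profiles, called neighbours and 4 index genes; Tnfsf11, Tnfrsf11b, Traf6, Nfatc1, Mical2, Mical3, Msrb1, Prom2, Krt19, Spag16, Krt8, Krt18, Tnfrsf19 and the neighbours given were named after their values were seen. Members and lists were chosen with earlier results of these data known. Start windows are from RefSeq (all 5 genes matched); protein sequences were not used here. Python 3.11.15 was used for the tables (pandas 2.3.3, numpy 2.4.6) and the plots (matplotlib 3.10.9).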

Additional observations from a re-analysis of the deposited data

Results flagged for a closer look

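In 12 of 160 groups of 4 arrays examined, 1 array lay far from the other 3, its log2 gap to the nearest array, divided by the range of the group, being above Dixon's 95% critical value; chance gives about 5% of groups. Among the 5 genes this was so for Krt31 alone, through the high value of control replicate 1 (0.839). NaPB replicate 4 was the low array for Cyp2b10 (0.898), Gstm3 (0.868), Gsta1 (0.895), Gstm4 (0.908), Aldh1a7 (0.899), Msrb1 (0.936), Kdr (0.962) and Cd3e (0.918). On the control diet, replicate 3 was high for Jun (0.968), and replicate 1 was low for Krt7 (0.898) and Calcr (0.842).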

How the results depend on the processing

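The log2 difference of each of the 7 features of the 5 genes stayed above 0 under all 16 alternatives. With 1 array left out it ran from 5.40 to 6.03 for Meig1 feature 32268, 5.36 to 5.64 for feature 42411, 4.63 to 5.66 for Mical1, 5.13 to 6.32 for Prom1 feature 4193, 0.36 to 1.01 for feature 59801, 2.44 to 2.96 for Tnfrsf11a and 1.77 to 2.12 for Krt31. A pseudocount of 1, which shrinks differences of dim features by construction, gave 2.34 and 1.58 for the Meig1 features, 2.36 for Mical1 and 2.29 for Prom1 feature 4193, and one at the 5th percentile of the table gave 4.60 for Meig1 feature 42411. The Prom1 feature difference was 2.10 with the pseudocount of 1 and 4.23 to 5.55 with 1 array left out. That of Meig1, 0.22 ± 0.46 over all arrays, rests on control values at the floor; it was −0.0421 to 0.55 and turned its sign without control replicate 2 (−0.00063) or 3 (−0.0421). Over all genes limma called 209: 88 to 365 with 1 array left out, 328 after quantile normalization, 111 at the same median, 135 with the replicate block, 570 without control replicate 1 and NaPB replicate 4, and 812 with array weights. Of the 148 listed genes 1 was called, 0 to 4 with 1 array left out, 0 at the same median and with the replicate block, 4 without both arrays and 5 with array weights. No neighbour was called under any alternative; those beyond averaged features were chosen after seeing the data. Deviations of same-numbered arrays correlated at 0.23, −0.29, 0.04 and 0.23. The sample titles share no number between the diets. With correlations this low and of mixed sign, whether the replicate numbers pair the samples cannot be told. Signal near the floor limits the control values of Meig1, Mical1 and Prom1.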
